A study of Mus musculus with 6 samples.

Results

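The genes described here are 4 genes of renal glutamine handling and ammonia production, Slc38a3, Glud1, Glul and Slc9a3. They were taken from the deposited count table by exact gene symbol, and all 4 of them were found among its 24421 genes. RNA came from the kidney cortex of mice expressing I-PpoI, an endonuclease that makes DNA double-strand breaks, in the epithelial cells of the proximal tubule (PT-I-PpoI, 3 libraries, titled PT-I_Ppo-1 in the labels) and of wild-type mice (WT, 3 libraries). The driver of the transgene, the strain, the age and the sex of the mice are not given in the sources used here, and no treatment is named for either group. Whether every numbered sample is a separate mouse is not stated. The p-values therefore cover the spread among these samples alone, which may be technical.

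Proximal tubule cells take up glutamine, among other routes through the basolateral transporter SNAT3 (Slc38a3). In their mitochondria ammonium is released from glutamine, and glutamate dehydrogenase (Glud1) releases a further ammonium from the glutamate that remains. The carbon skeleton can go to glucose through phosphoenolpyruvate carboxykinase (Pck1), and the sodium-proton exchanger NHE3 (Slc9a3) at the apical membrane, which can also carry ammonium, takes part in moving ammonium into the tubule lumen. Glutamine synthetase (Glul) runs the opposite way, joining glutamate and ammonium into glutamine. During metabolic acidosis the uptake and breakdown steps are known to increase and glutamine synthetase to decrease in the rodent kidney.

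The libraries held 13582540 to 20861021 counted read pairs. They differed in a way the groups did not fully explain. Deposited library names take 2 forms, lacking a hyphen ahead of the last digit (PT-I-PpoI replicates 1 and 2, WT replicate 1) or with one (PT-I-PpoI replicate 3, WT replicates 2 and 3), and the first principal component, with 43.1% of the variance, ordered the libraries by that form. The labels do not call it a batch. PT-I-PpoI replicate 3 lay at 11.8 on that component, against -23.1 and -30.2 in PT-I-PpoI replicates 1 and 2. WT replicates 1 to 3 lay at -0.54, 20.4 and 21.5. Within each name form the PT-I-PpoI libraries thus lay below the WT libraries, so the component followed the group as well. WT replicate 3 stood apart in the liver transcripts Alb and Apoa1, with 110 CPM (counts relative to the library total, adjusted by TMM factors and scaled alike in all libraries) of Alb against 9.92 to 11.2 CPM in the other libraries.

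None of the 4 genes passed the test. Over 13977 tested genes, with p-values adjusted by Benjamini-Hochberg, the quasi-likelihood test of edgeR called 0 of the 4, as did DESeq2 (background 1.03% of genes called higher and 0.498% lower), and none of them had an unadjusted p under 0.05, which 12% of all tested genes had. The background was 0.136% of tested genes called, 19 in all, each of them higher in PT-I-PpoI. None of the 4 separated the groups, whereas 17% of all tested genes had no overlap between the PT-I-PpoI and WT libraries (9.23% higher and 7.74% lower). The median log2 fold change was -0.08 over the 4 genes and 0.00 over all tested genes. What the 4 genes showed instead was unequal spread, from Glud1, which was nearly level across all libraries, to Glul, which separated the PT-I-PpoI libraries from each other.

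**Figure D1:**
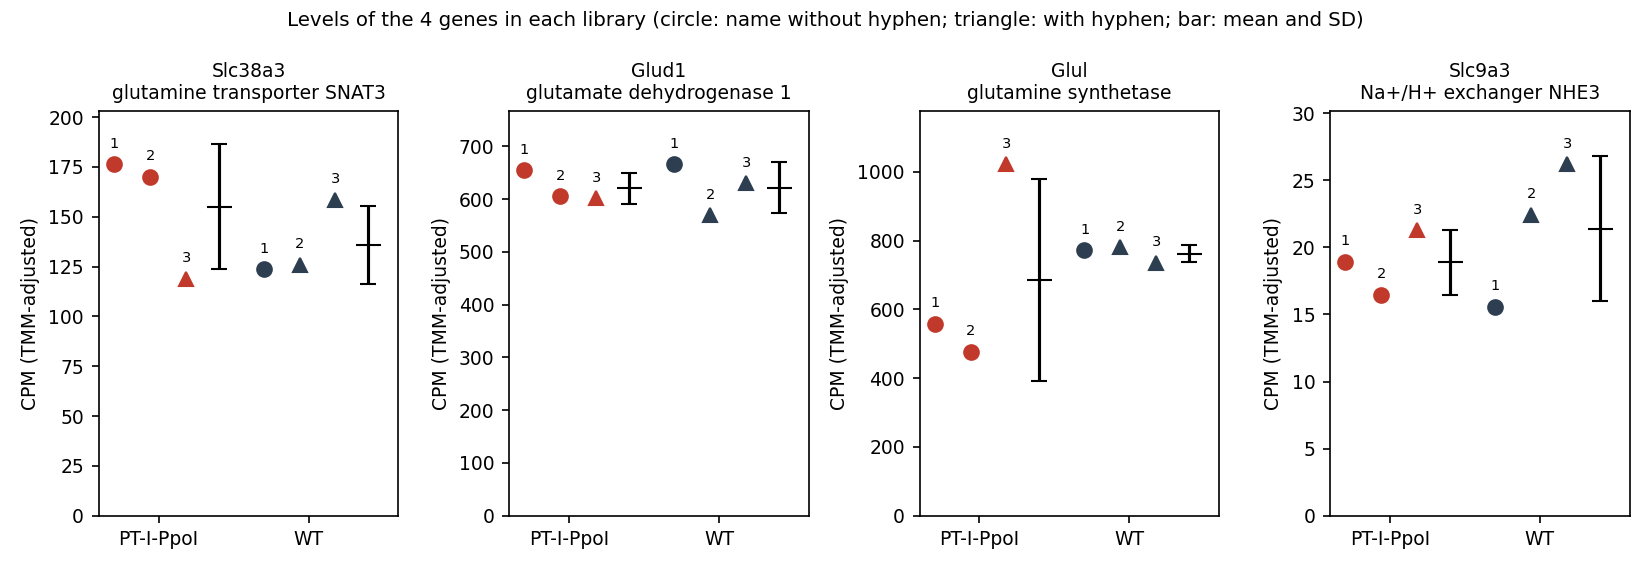
Levels of Slc38a3, Glud1, Glul and Slc9a3 in CPM (y axis, from 0) in each PT-I-PpoI and WT library, numbered by replicate, with the mean and SD of each group (n = 3) to the right of its points. Circles are libraries whose names lack a hyphen and triangles those with one. Glul reached 1023 CPM in PT-I-PpoI replicate 3, while PT-I-PpoI replicates 1 and 2 lay below all WT libraries.

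Slc38a3 (chromosome 9, 107651155 to 107668968, minus strand, mm10), which carries glutamine across the basolateral membrane, had 176, 170.0 and 119 CPM in PT-I-PpoI replicates 1 to 3. In WT replicates 1 to 3 it had 124, 126 and 159 CPM. The 2 PT-I-PpoI libraries without a hyphen were the highest of the 6, the remaining PT-I-PpoI library was the lowest, and the groups overlapped. The log2 fold change was 0.19 ± 0.16 (SE; edgeR adjusted p = 0.641), with a 95% interval of -0.18 to 0.56, that is from 0.886-fold to 1.47-fold. Within libraries whose names lack a hyphen the log2 difference was 0.49, and within those with one it was -0.25. WT replicate 3, the library with more Alb, was the highest WT library for Slc38a3, a gene that liver also expresses. Without it the log2 fold change was 0.32 (edgeR adjusted p = 0.736). When PT-I-PpoI replicate 3 was left out it was 0.35 (edgeR adjusted p = 0.126). Leaving out any of the other 4 libraries lowered it, to between 0.09 without PT-I-PpoI replicate 1 and 0.14 without WT replicate 2. The part of liver RNA in this value was not tested.

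Glud1 (chromosome 14, 34310727 to 34345033, plus strand), the mitochondrial enzyme that releases ammonium from glutamate, was the steadiest of the 4 genes. It had 655, 605 and 602 CPM in PT-I-PpoI replicates 1 to 3, against 666, 569 and 630.0 CPM in WT replicates 1 to 3. All PT-I-PpoI values lay inside the WT range. Means were 620.4 ± 29.7 CPM in PT-I-PpoI, against 622 ± 48.8 CPM in WT (SD, n = 3 each). The log2 fold change was 0.00 ± 0.09 (SE; edgeR adjusted p = 0.992). Its 95% interval, from -0.22 to 0.21 or 0.859-fold to 1.16-fold, was the narrowest of the 4. Among 9474 genes with a mean of at least 10 CPM, only 19.3% had a smaller SD of log2 CPM over the 6 libraries than Glud1.

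Glul (chromosome 1, 153899929 to 153909723, plus strand), which uses up ammonium to make glutamine, behaved differently. It had 559, 477 and 1023 CPM in PT-I-PpoI replicates 1 to 3. WT replicates 1 to 3 had 772, 781 and 735 CPM. The PT-I-PpoI libraries thus lay on both sides of a narrow WT range, PT-I-PpoI replicates 1 and 2 below every WT library and PT-I-PpoI replicate 3 above every one. The highest value was 2.14 times the lowest within PT-I-PpoI and 1.06 times within WT. Group means were 686 ± 294 CPM in PT-I-PpoI, against 763 ± 24.4 CPM in WT (SD, n = 3 each).

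For Glul the log2 fold change was -0.15 ± 0.25 (SE; edgeR adjusted p = 0.823), with a 95% interval of -0.72 to 0.41, or 0.608-fold to 1.33-fold. A difference of either sign and of moderate size is thus inside what these libraries allow. The value turned on single PT-I-PpoI libraries. It was -0.03 without PT-I-PpoI replicate 1 (edgeR adjusted p = 0.989). With PT-I-PpoI replicate 2 left out it was 0.05 (edgeR adjusted p = 0.979). Without PT-I-PpoI replicate 3 the Glul log2 fold change was -0.56 ± 0.10 (SE) and passed the test (edgeR adjusted p = 0.0285), in a comparison where 4.4% of 14219 tested genes were called. Over the other 14 alternatives tried, the edgeR, DESeq2 or limma adjusted p of Glul stayed above the threshold. The 2 PT-I-PpoI libraries then left both have names without a hyphen, as 1 of the 3 WT libraries does, so the name form and the group cannot be fully told apart there. Within libraries without a hyphen the Glul log2 difference was -0.58, and within those with one it was 0.43. The SD of Glul log2 CPM over the 6 libraries exceeded that of 96.1% of the 9474 genes with at least 10 CPM. WT replicate 3, the library with more Alb, had the lowest Glul value of the WT libraries.

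Slc9a3 (NHE3) was counted over a gene model that stops at the stop codon, which bears on its level. The model (chromosome 13, 74121515 to 74166064, plus strand, mm10) has 16 exons with 2490 bases, equal to the coding length of the transcript in GENCODE vM1. The RefSeq gene on GRCm38.p6 starts further upstream, at 74086255, and runs 3378 bases past the end of the model. The ends of that coding sequence are shown because they mark the limits of what was counted. They come from the GENCODE vM1 transcript (NCBIM37, chromosome 13, plus strand), with the start and stop codons in capitals.
Slc9a3 first 30 coding bases: ATGtggcaccgggctctgggaccagggtgg
Slc9a3 last 30 coding bases: ccggctgcccccgagtccacacacatgTAA
Read pairs lying wholly in the untranslated parts of this mRNA were therefore not counted. The exon models of Glud1 (3158 bases), Glul (2807 bases) and Slc38a3 (2726 bases) are longer than their coding sequences of 1677, 1122 and 1518 bases. Of 19181 genes matched by symbol, 6.94% had a counted length equal to a coding length.

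Slc9a3 had 18.9, 16.4 and 21.3 CPM in PT-I-PpoI replicates 1 to 3, from 298 to 358 read pairs. It had 15.6, 22.4 and 26.2 CPM in WT replicates 1 to 3, from 296 to 526 read pairs. The groups overlapped, but the name forms did not: the 3 libraries with a hyphen were the 3 highest and the 3 without were the lowest. The log2 fold change was -0.18 ± 0.19 (SE; edgeR adjusted p = 0.707), with a 95% interval of -0.61 to 0.25, or 0.656-fold to 1.19-fold. In a fit that also held the name form it was -0.01 ± 0.13 (SE; edgeR adjusted p = 0.990). Among the unhyphenated libraries the log2 difference was 0.18, and among the hyphenated ones it was -0.19.

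**Figure D2:**
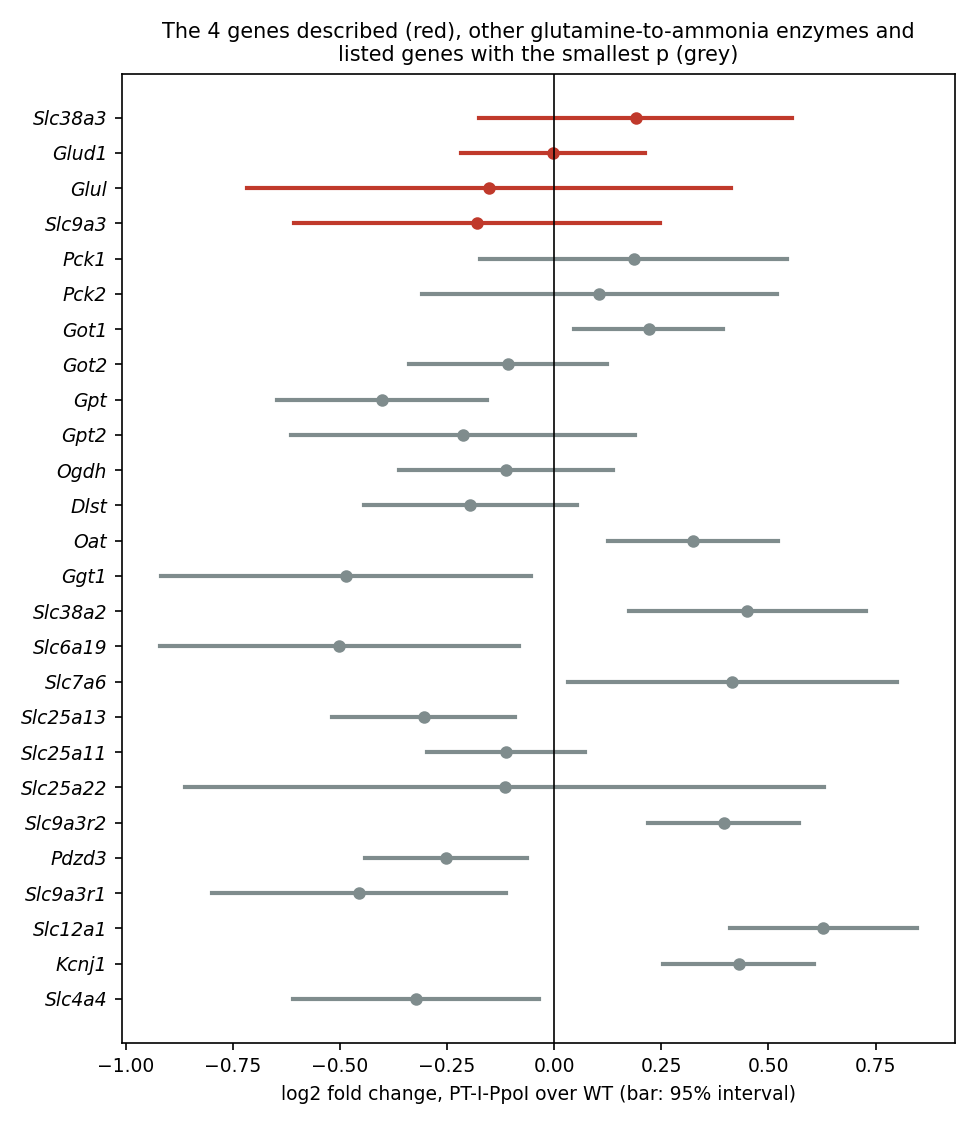
Log2 fold changes of PT-I-PpoI over WT (x axis; points) with 95% intervals, not adjusted for the number of genes, from edgeR's quasi-likelihood fit (bars) for the 4 genes described (red), other glutamine-to-ammonia enzymes, and listed pathway genes with the smallest p (grey). The interval of Glud1 runs from -0.22 to 0.21 and that of Glul from -0.72 to 0.41, and all 4 red intervals cross 0.

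Levels of different genes were compared per kilobase of counted exon (RPKM, that is CPM per 1000 exon bases, from the TMM-adjusted totals). Glul stood at 244 ± 105 RPKM in PT-I-PpoI and 272 ± 8.70 RPKM in WT (SD, n = 3 each). Glud1 followed with 196 ± 9.40 RPKM in PT-I-PpoI and 197 ± 15.5 RPKM in WT. Slc38a3 was lower, at 56.9 ± 11.6 RPKM in PT-I-PpoI and 49.9 ± 7.19 RPKM in WT. Slc9a3 was lowest, at 7.58 ± 0.97 RPKM in PT-I-PpoI and 8.59 ± 2.17 RPKM in WT, for its coding part alone. Neighbours in this order were separated in every library except for Glul and Glud1. In those the level of Glul divided by that of Glud1, per length, was 0.960, 0.887 and 1.91 in PT-I-PpoI replicates 1 to 3, and 1.30, 1.54 and 1.31 in WT replicates 1 to 3. Glul was thus below Glud1 in PT-I-PpoI replicates 1 and 2 and above it in the other 4 libraries.

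The genes whose log2 CPM followed each of the 4 most closely over the 6 libraries were looked up among 9238 other genes with at least 10 CPM, leaving out predicted genes. For Glul these were Pde3b, a phosphodiesterase (Pearson r = 0.995), Ptbp3, an RNA-binding protein (r = 0.994), and Dnm1l, the mitochondrial fission GTPase (r = 0.993). Pde3b had 9.16, 7.56 and 16.7 CPM in PT-I-PpoI replicates 1 to 3 and 12.8, 13.63 and 11.95 CPM in WT replicates 1 to 3, which is the order of Glul within PT-I-PpoI. For Slc38a3 they were the transcription factors Atf7 (r = 0.992) and Rfx1 (r = 0.989) and Atf7ip, a binding partner of Atf7 (r = 0.986). Atf7 had 35.1, 34.6 and 27.001 CPM in PT-I-PpoI replicates 1 to 3 and 28.6, 28.0 and 33.7 CPM in WT replicates 1 to 3. For Glud1 they were Cdc40 (r = 0.981), Jarid2 (r = 0.974) and Bhmt (r = 0.970), and for Slc9a3 they were Wdr48 (r = 0.982), Bola3 (r = 0.982) and Cd151 (r = 0.979). These are the highest of many r values over the same 6 libraries, which also share their depth and name form, so no p is given.

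**Figure D3:**
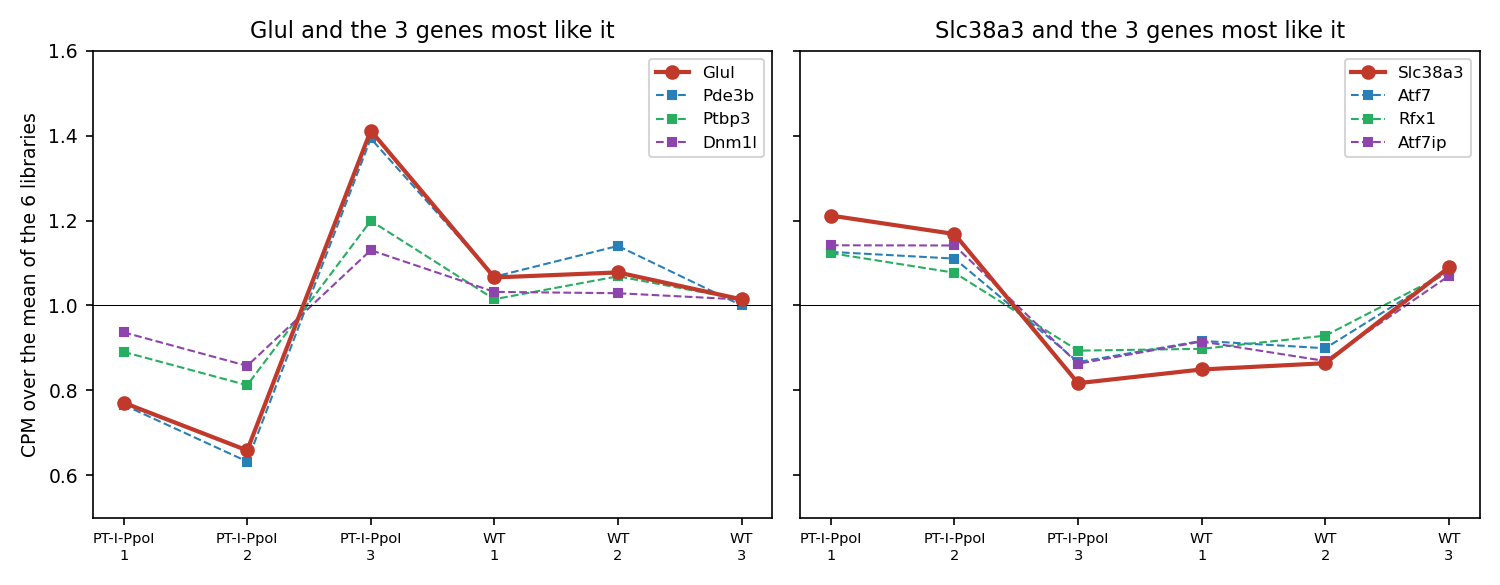
CPM divided by the mean of the 6 libraries (y axis, which does not start at 0) for Glul (left) and Slc38a3 (right), each with the 3 genes whose log2 CPM was most like it, in the PT-I-PpoI and WT libraries. Lines only join the points of 1 gene. PT-I-PpoI replicate 3 is the highest library for Glul and the lowest for Slc38a3, while PT-I-PpoI replicates 1 and 2 are the lowest for Glul and the highest for Slc38a3.

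The remaining genes of the pathway were read from 6 lists with 92 genes, of which 86 passed the filter on low counts. edgeR called 0 of the 86, and DESeq2 called 3, all higher (background 1.53% of the 12256 genes to which DESeq2 gave an adjusted p). Unadjusted p-values under 0.05 were found for 9 higher and 10 lower genes, where the background was 6.42% higher and 5.61% lower. Log2 fold changes were above 0 for 33 of the 86 and below 0 for 53, with a median log2 fold change of -0.07. Without PT-I-PpoI replicate 3, edgeR called 14 of 88 tested pathway genes. Of these 5 were higher, beside a background of 1.84%, and 9 lower, beside 2.56%. They were Slc12a1, Slc38a2, Slc9a3r2, Kcnj1 and Oat, which were higher, and Glul, Slc7a8, Slc6a19, Slc12a2, Slc25a13, Slc4a4, Slc9a3r1, Gpt and Gfpt1, which were lower. As for Glul above, the name form and the group cannot be fully told apart in this comparison. Within the hyphenated libraries, PT-I-PpoI replicate 3 included, the log2 differences of Glul (0.43), Slc7a8 (0.04), Slc12a2 (0.04) and Gfpt1 (0.02) were above 0. The others kept their sign there.

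Among the enzymes on the way from glutamine to ammonia and glucose, 10 of 11 were tested, 0 were called by edgeR and 0 by DESeq2, and 3 lay above 0 and 7 below (median log2 fold change -0.06). Gls2, an enzyme that releases ammonium from glutamine and is typical of liver, had 3 to 7 read pairs per library in PT-I-PpoI and 6 to 13 in WT and was not tested.
Pck1, which starts glucose synthesis from the carbon left over, was at 4088 ± 520.2 CPM in PT-I-PpoI, against 3595 ± 621 CPM in WT, a log2 difference of 0.19 ± 0.16 (SE; edgeR adjusted p = 0.642). Got1, the cytosolic aspartate aminotransferase, was at 150.1 ± 1.20 CPM in PT-I-PpoI, against 129 ± 7.61 CPM in WT (edgeR adjusted p = 0.340). Gpt, an alanine aminotransferase, was at 40.1 ± 3.93 CPM in PT-I-PpoI, against 52.8 ± 5.96 CPM in WT (edgeR adjusted p = 0.228). Got1 and Gpt were the only genes of this list whose groups did not overlap. That is 1 higher and 1 lower of 10 tested, where the background was 9.23% higher and 7.74% lower. The log2 fold changes of Pck2 (0.11), Got2 (-0.11), Gpt2 (-0.21), Ogdh (-0.11) and Dlst (-0.20), which pass carbon or amino groups on through the mitochondria, all had intervals that include 0.

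Of 17 tested enzymes that otherwise make or use glutamate and glutamine, Glul included, 0 were called by edgeR or DESeq2. Unadjusted p-values under 0.05 were found for 1 higher and 1 lower gene (background 6.42% higher and 5.61% lower). The median log2 fold change was -0.11. Oat, which turns ornithine into a glutamate precursor, was at 195 ± 17.0 CPM in PT-I-PpoI, against 156 ± 4.42 CPM in WT (log2 fold change 0.32, edgeR adjusted p = 0.228). Ggt1, the brush border enzyme that splits glutathione, was at 1088 ± 219.9 CPM in PT-I-PpoI, against 1523 ± 325 CPM in WT (log2 fold change -0.49, edgeR adjusted p = 0.381).

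The transporters of glutamine and glutamate in the plasma and lysosomal membranes, Slc38a3 among them, gave 0 calls over 23 tested genes by edgeR and by DESeq2. At an unadjusted p under 0.05, 2 were higher and 3 lower (background 6.42% higher and 5.61% lower), and the median log2 fold change was -0.10. The groups did not overlap for 3 higher genes and 1 lower gene (background 9.23% higher and 7.74% lower). Slc38a2 (SNAT2), a relative of Slc38a3 found in most tissues, was at 63.8 ± 9.78 CPM in PT-I-PpoI, against 46.7 ± 4.03 CPM in WT, with no overlap between the groups (log2 fold change 0.45 ± 0.12, SE; edgeR adjusted p = 0.228). Slc6a19, the apical carrier that reabsorbs filtered neutral amino acids, was at 198 ± 55.8 CPM in PT-I-PpoI, against 280.1 ± 26.5 CPM in WT (log2 fold change -0.50 ± 0.18, SE; edgeR adjusted p = 0.358). Slc7a6, an amino acid exchanger, was at 5.43 ± 0.78 CPM in PT-I-PpoI, against 4.08 ± 0.24 CPM in WT (edgeR adjusted p = 0.393). Of 5 tested mitochondrial carriers, edgeR and DESeq2 called 0, and 1 gene, a lower one, had an unadjusted p under 0.05 (background 5.61% lower). That gene was Slc25a13, an aspartate-glutamate carrier, at 130.5 ± 14.5 CPM in PT-I-PpoI, against 161 ± 3.31 CPM in WT (log2 fold change -0.30, edgeR adjusted p = 0.295). Slc25a11, the oxoglutarate carrier, differed by -0.11 on the log2 scale (edgeR adjusted p = 0.580).

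Slc9a3 was set beside the other sodium-proton exchangers and the scaffold proteins that hold NHE3 at the membrane. Of 17 tested genes edgeR called 0 and DESeq2 called 1 (background 1.53%). Unadjusted p-values under 0.05 were found for 2 higher and 2 lower genes (background 6.42% higher and 5.61% lower), and the median log2 fold change was -0.10. The groups did not overlap for 2 higher and 3 lower genes (background 9.23% higher and 7.74% lower). The scaffolds NHERF1 (Slc9a3r1) and NHERF2 (Slc9a3r2) lay on opposite sides of 0. Slc9a3r2 was at 90.3 ± 4.73 CPM in PT-I-PpoI, against 68.6 ± 3.56 CPM in WT, with no overlap (log2 fold change 0.40 ± 0.08, SE; edgeR adjusted p = 0.146, DESeq2 adjusted p = 0.0113). Slc9a3r1 was at 286 ± 51.3 CPM in PT-I-PpoI, against 392.1 ± 57.6 CPM in WT (log2 fold change -0.46 ± 0.15, SE; edgeR adjusted p = 0.322). Pdzd3, a further scaffold of this family, was at 115 ± 5.11 CPM in PT-I-PpoI, against 137 ± 9.78 CPM in WT (edgeR adjusted p = 0.319).

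Among 14 genes of ammonia and bicarbonate transport, edgeR called 0 and DESeq2 called 2 (background 1.53%). For 3 higher and 2 lower genes the unadjusted p was under 0.05 (background 6.42% higher and 5.61% lower). The median log2 fold change was 0.01. Slc12a1, the sodium-potassium-chloride cotransporter through which the thick ascending limb also takes up ammonium, was at 1037 ± 26.98 CPM in PT-I-PpoI, against 671 ± 56.3 CPM in WT (log2 fold change 0.63, edgeR adjusted p = 0.0641). It was called higher in the fit that also held the name form (log2 fold change 0.62, edgeR adjusted p = 0.0294). The background in that fit was 0.458% called, 0.351% higher and 0.107% lower. Kcnj1, the potassium channel of the same segment, was at 272 ± 5.80 CPM in PT-I-PpoI, against 202 ± 9.85 CPM in WT (log2 fold change 0.43, edgeR adjusted p = 0.0974). Kcnj1 was called higher in the fit with the name form as well (log2 fold change 0.42, edgeR adjusted p = 0.0471). Slc4a4, which returns bicarbonate to the blood in the proximal tubule, was at 641 ± 110.3 CPM in PT-I-PpoI, against 802 ± 15.2 CPM in WT (log2 fold change -0.32, edgeR adjusted p = 0.382).

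**Figure D4:**
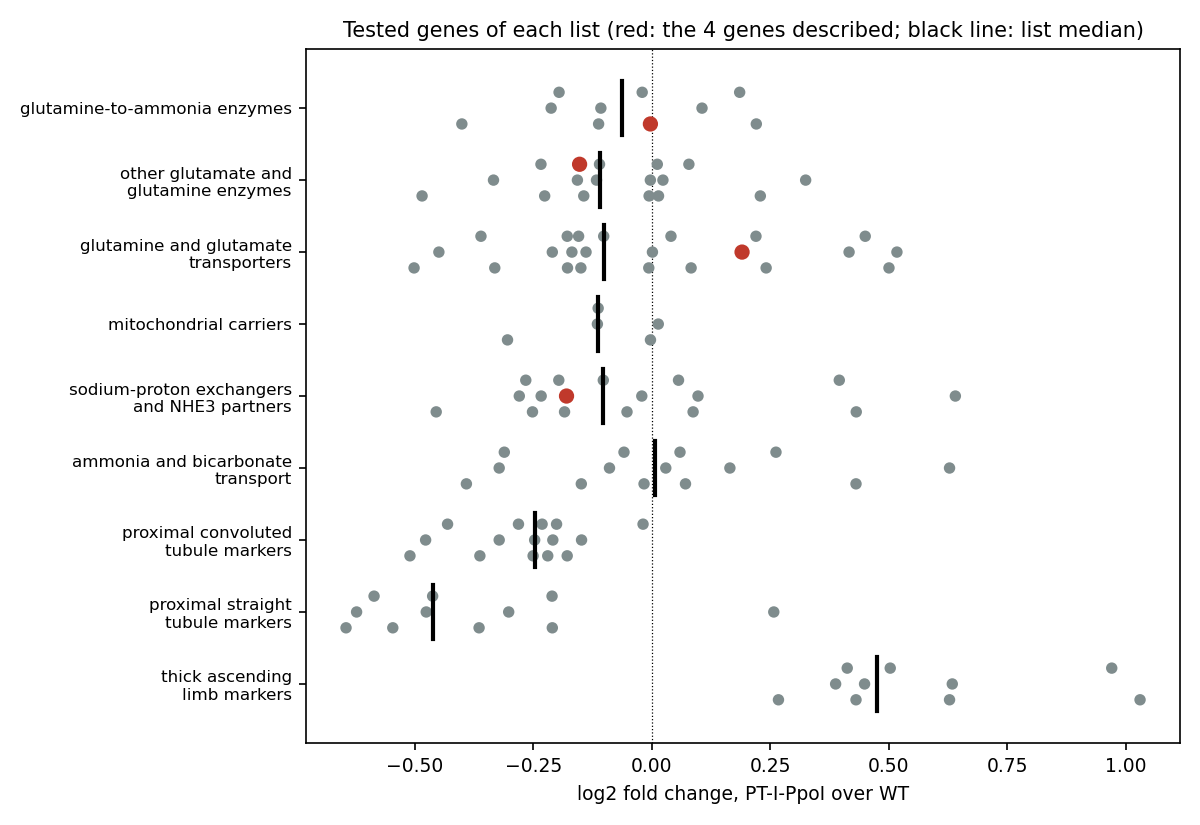
Log2 fold changes of PT-I-PpoI over WT (x axis) for every tested gene of the 6 pathway lists and of 3 nephron segment marker lists (rows), with the 4 genes described in red and list medians as black lines. Vertical spread within a row only separates points. The pathway medians lie between -0.11 and 0.01, those of the proximal tubule markers at -0.25 and -0.46, and that of the thick ascending limb markers at 0.48.

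Marker lists of the nephron segments differed in where they lay. All 15 markers of the proximal convoluted tubule had log2 fold changes below 0 (median -0.25), and edgeR and DESeq2 called 0. Unadjusted p-values under 0.05 were found for 4, all lower (background 5.61% lower). Their summed level was 15637 to 21993 CPM in PT-I-PpoI, against 19870 to 25490 CPM in WT. Of 11 straight segment markers 10 lay below 0 (median -0.46), and their sum was 9181 to 11710 CPM in PT-I-PpoI, against 12208 to 14428 CPM in WT. edgeR called 0 of them, and DESeq2 called 6 lower (background 0.498% lower). For 1 higher and 6 lower markers the unadjusted p was under 0.05 (background 6.42% higher and 5.61% lower). The higher one was Slc22a13, an organic anion transporter, which differed by 0.26 on the log2 scale (edgeR adjusted p = 0.367), named after its values were seen. All 10 thick ascending limb markers lay above 0 (median 0.48), with sums of 7875 to 8200.0 CPM in PT-I-PpoI, against 5575 to 6333 CPM in WT. Of these 10, edgeR called 2 (background 0.136%), DESeq2 called 6 (background 1.03% higher), the fit with the name form called 4 (background 0.351% higher), and 9 had unadjusted p-values under 0.05 (background 6.42% higher). Slc12a1 and Kcnj1 belong to this list too. Slc4a4, Slc3a1, Aqp1, Rhbg and Rhcg are likewise on both a pathway list and a marker list, so the lists are not independent.

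The lists from the collecting duct and medulla lay above 0 as well. All 9 markers of collecting duct principal cells did so (median 0.53), with a sum of 934 to 1049 CPM in PT-I-PpoI, against 665 to 702 CPM in WT. Of these 9, edgeR called 2 (background 0.136%) and DESeq2 called 5 (background 1.03% higher). All 5 tested markers of the inner medulla and thin limb lay above 0 too (median 0.81). Of these, edgeR called 1 (background 0.136%) and DESeq2 called 2 (background 1.03% higher). Their sum was 1355 to 1392 CPM in PT-I-PpoI, against 987 to 1267 CPM in WT. Most of that sum was Aqp1, named after its values were seen. Aqp1 was at 1033 ± 24.0 CPM in PT-I-PpoI, against 983 ± 114 CPM in WT (log2 fold change 0.07). Of 9 markers of intercalated cells, which secrete acid or bicarbonate in the collecting duct, 9 lay above 0 (median 0.16). Of these, edgeR and DESeq2 called 0, and 2 had unadjusted p-values under 0.05 (background 6.42% higher). Of 8 distal convoluted tubule markers 7 lay below 0 (median -0.16), and edgeR and DESeq2 called 0. The unadjusted p was under 0.05 for 1, a lower one (background 5.61% lower).

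A list of 6 genes taken as markers of liver and fat, of which 5 were tested, had 0 called by edgeR or DESeq2. All 5 lay below 0 (median log2 fold change -0.94). Alb and Cyp2e1 had unadjusted p-values under 0.05 (background 5.61% lower). The list median was -0.52 for the unhyphenated name form and -0.22 for the hyphenated form. Only Cyp2e1 was below 0 in both forms, as Alb, Apoa1, Adipoq and Cfd changed sign between them. Single WT libraries also stood out in this list. WT replicate 1 was the highest library for the fat gene Adipoq, at 9.87 CPM, against 0.582 to 5.32 CPM in PT-I-PpoI and 2.04 and 3.03 CPM in the other WT libraries. It also had 71 read pairs of Plin1, a fat droplet protein, where the other libraries had 6 to 16. Alb was high in WT replicate 3 alone. Among the segment lists, Akr1b3 of the inner medulla was the only marker at 0 in every library. Whether its RNA was absent or could not be counted was not tested. In bulk cortex, fewer cells of a type and less RNA per cell cannot be told apart, and the part of segment makeup in the values of Slc38a3, Glud1, Glul and Slc9a3 was not tested. Slc9a3 is a gene of both the proximal tubule and the thick ascending limb, whose marker medians lay on opposite sides of 0.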

How the data were processed

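The authors deposited raw counts of read pairs per gene from stranded mRNA libraries. Per the labels' protocols the aligner was HISAT2. Pairs were counted over exons by featureCounts 1.5.2, per the file headers, with both mates required and no strand, multi-mapping or overlap option set. Sense and antisense reads were thus counted alike, and reads with several mapping places were left out. Only Mir8114, with 0 counts, shares exon bases with any of the 4 genes (Glul). The header names mm10 and the labels' protocols mm9. Of 23204 genes matched by symbol, 99.3% overlapped their GRCm38.p6 (mm10) position, so coordinates are mm10.

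A table of regularized log2 values (rlog) was also deposited. The submitters' processing notes name DESeq2. It served 1 alternative test.

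Counts were analysed in R 4.3.3 with edgeR 4.0.16 (expression filter with a minimum count of 10, TMM factors, quasi-likelihood test, two-sided). All p-values were adjusted by Benjamini-Hochberg over all tested genes, with a threshold of 0.05. The fitting was tested on simulated data. Fold changes are PT-I-PpoI over WT. SE is that of the log2 fold change, and log2 CPM used a prior count of 2. DESeq2 1.42.0, limma 3.58.1, other factors and filters, a replicate block, the name form and leaving out each library were alternatives.

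The genes and lists were chosen with earlier results of these data known. Named genes are the 4 genes, the tested enzymes from glutamine to ammonia, up to 3 genes of smallest p in each other list, the 3 genes most like each of the 4, and Gls2. Some genes that this rule names are not reported here. Genes called under an alternative and the liver and fat transcripts were named after their values were seen. Cltrn was matched through its older symbol.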

Additional observations from a re-analysis of the deposited data

How the results depend on the processing

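None of the 4 genes passed the test under any of the 15 alternatives, apart from Glul without PT-I-PpoI replicate 3. Leaving out 1 library at a time moved the log2 fold change of Glul from -0.56 to 0.0512, of Glud1 from -0.0636 to 0.0484, of Slc38a3 from 0.09 to 0.35 and of Slc9a3 from -0.37 to -0.002. Slc9a3 was at -0.002 without WT replicate 3 and at -0.37 without WT replicate 1. Glud1 also changed sign with upper-quartile factors (0.0166) and limma-voom (0.000699), all close to 0. Over all genes, 19 calls became 47 with no filter on low counts, 187 by DESeq2, 40 with the replicate block and 64 with the name form as a term. They were 0 to 625 with 1 library left out: 625 without PT-I-PpoI replicate 3, 0 without either other PT-I-PpoI library or WT replicate 3, 2 without WT replicate 1 and 9 without WT replicate 2. Calls among pathway genes, 0 at first, were 1 with no filter, 3 by DESeq2, 2 once the name form was a term, and 0 to 14 with 1 library left out. The cause of these shifts was not tested.

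The sample titles give both groups replicates 1 to 3, but these title numbers did not pair the samples consistently. The library names carry other numbers for some samples, and a block by those was not tested. PT-I-PpoI replicate 3 shares its library-name number with WT replicate 2. Deviations from the group means correlated at 0.22, -0.13 and 0.16 within the pairs of the same title number. Not every sample correlated best with its own title number. PT-I-PpoI replicate 3 and WT replicate 2 correlated at 0.18. With the replicate block, set by title number, the log2 fold changes were 0.00 for Glud1, -0.24 for Glul, 0.18 for Slc38a3 and -0.15 for Slc9a3, none called. Among other named pathway genes, Pck2 turned to -0.0452 with the name form as a term. With 1 library left out, Pck2 ranged from -0.0700 to 0.26 and Slc25a22 from -0.33 to 0.43. Slc9a3 had the fewest read pairs of the 4 genes, 296 to 526 per library.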

Other observations

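Slc5a12, a sodium-coupled lactate transporter of the proximal convoluted tubule chosen after its values were seen, followed Glul through the libraries. It had 250.4, 208 and 450.2 CPM in PT-I-PpoI replicates 1 to 3, against 359, 340.5 and 307 CPM in WT replicates 1 to 3. The CPM of Glul divided by that of Slc5a12 stayed between 2.23 and 2.30 in PT-I-PpoI and between 2.15 and 2.40 in WT, although Glul itself differed 2.14 times within PT-I-PpoI. Of the 15 listed markers of this segment, Slc5a12 was the only marker with PT-I-PpoI replicate 3 above all WT libraries. Other segment lists held more such genes, also looked up after their values were seen. Acsm3, Cyp7b1 and Slc22a7 of the straight segment and Calb1 of the distal convoluted tubule had PT-I-PpoI replicate 3 above every WT library. In these genes PT-I-PpoI replicates 1 and 2 lay below every WT library. For the 15 markers of the convoluted segment, replicate 3 was the highest PT-I-PpoI library in all except Slc22a8. That gene had 860, 815 and 795 CPM in PT-I-PpoI replicates 1 to 3.

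Slc25a22, a mitochondrial glutamate carrier, was high in a single library. It had 67.4, 91.5 and 59.5 CPM in PT-I-PpoI replicates 1 to 3, against 128, 54.7 and 53.2 CPM in WT replicates 1 to 3, and its log2 fold change of -0.12 became 0.43 without WT replicate 1 (edgeR adjusted p = 0.905 and 0.299).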
